A study of Arabidopsis thaliana with 28 samples.

Results

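The genes described here encode the enzymes that make abscisic acid (ABA), the plant hormone of drought and seed dormancy, in Arabidopsis thaliana. They were taken by gene identifier from a list of 10 loci: NCED2, NCED3, NCED5, NCED6, NCED9, ABA1, ABA2, ABA3, ABA4 and AAO3. Of these, 7 were measured among the 18310 genes of the deposited table, and 3 dioxygenase genes (NCED2, NCED5 and NCED6) were absent from it, so nothing is said of their levels. The label of that table names a filter on counts per M reads, and genes below it under both treatments would be missing. Whether the filter removed these 3 is not stated. A missing entry does not show that a gene was silent. The rule uses gene identifiers and no measured value, but the genes were chosen with earlier results of these data known.

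The 28 libraries came from whole Col-0 seedlings grown for 3 days in the dark on mesh in hydroponic culture. Seedlings then received 10 µM ABA or, as mock, ethanol, and stayed in the dark. Sampling followed at 1, 4, 8, 12, 24, 36 and 60 h, which gave 14 groups of 2 libraries, all wild type. The study title places the data among work on transcription factors that respond to ABA, and the comparison used here is that of ABA with mock at each time. Because whole seedlings were sampled, fewer cells of a type and less RNA per cell cannot be told apart.

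ABA is made from carotenoids. In the plastid, zeaxanthin epoxidase (ABA1) forms violaxanthin, ABA4 is needed to form neoxanthin, and the 9-cis-epoxycarotenoid dioxygenases (NCEDs) cut the carotenoid to xanthoxin, the step usually held to limit the rate. In the cytosol, the dehydrogenase ABA2 turns xanthoxin into abscisic aldehyde, the aldehyde oxidase AAO3 turns that into ABA, and ABA3 sulfurates the molybdenum cofactor that AAO3 needs. NCED3 is known as the dioxygenase of water stress in vegetative tissue, and NCED6 and NCED9 are known from seeds.

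The bases just before the annotated start of 4 of the genes are shown. NCED3 and ABA1 were chosen because theirs are the 2 responses that were called different between times, and NCED9 and ABA3 because their windows hold a G-box, so these last windows were picked for the motif marked in them. Sequences are from the RefSeq genome, build TAIR10.1, each 250 bases long and read 5′ to 3′ on the strand of the gene. Capitals mark ACGTG on either strand, the core of the ABA-responsive element. CACGTG, the G-box, holds that core on both strands and so counts as a match on each. The windows lie at chr3:4834016-4834265 (minus strand), chr5:26757403-26757652 (minus), chr1:29492876-29493125 (minus) and chr1:5659120-5659369 (plus).
NCED3: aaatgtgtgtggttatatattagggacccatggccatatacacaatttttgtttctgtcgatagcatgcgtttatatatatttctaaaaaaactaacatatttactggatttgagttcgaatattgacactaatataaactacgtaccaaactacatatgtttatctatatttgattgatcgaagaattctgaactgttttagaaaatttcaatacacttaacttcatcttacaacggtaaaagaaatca
ABA1: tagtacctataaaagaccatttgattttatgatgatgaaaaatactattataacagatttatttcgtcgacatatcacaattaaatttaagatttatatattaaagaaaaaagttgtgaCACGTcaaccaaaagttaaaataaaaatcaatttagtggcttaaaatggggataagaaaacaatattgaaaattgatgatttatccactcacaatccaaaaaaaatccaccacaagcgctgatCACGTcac
NCED9: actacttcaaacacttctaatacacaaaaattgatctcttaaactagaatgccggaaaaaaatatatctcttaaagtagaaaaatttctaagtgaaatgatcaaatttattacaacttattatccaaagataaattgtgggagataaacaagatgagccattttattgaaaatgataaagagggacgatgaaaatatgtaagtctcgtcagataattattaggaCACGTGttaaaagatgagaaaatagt
ABA3: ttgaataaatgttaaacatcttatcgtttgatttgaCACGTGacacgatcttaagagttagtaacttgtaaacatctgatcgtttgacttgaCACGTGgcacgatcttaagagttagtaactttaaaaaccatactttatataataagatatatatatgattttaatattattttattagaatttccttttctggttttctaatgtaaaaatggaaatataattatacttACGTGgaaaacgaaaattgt
The NCED3 window held no match. The ABA1 window held 2 single matches, at bases -131 to -127 and -8 to -4 from the start. The NCED9 window held 1 G-box at -26 to -21, and the ABA3 window held G-boxes at -214 to -209 and -158 to -153 and a single match at -20 to -16. The windows of NCED2, NCED5, NCED6, ABA2, ABA4 and AAO3 had no match either. Of all 27443 protein-coding genes, 22.9% held ACGTG in such a window, so 3 of 10 members with a match is near the share of all genes. CACGTG was held by 6.5% of all genes and, among the 10 members, by NCED9 and ABA3. At least 2 ACGTG matches, counting each strand, stood in 8.8% of all windows and in those of ABA1, NCED9 and ABA3. With 10 members these shares were not tested. A match is a run of letters and not a binding site, and longer promoters were not searched.

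**Figure D1:**
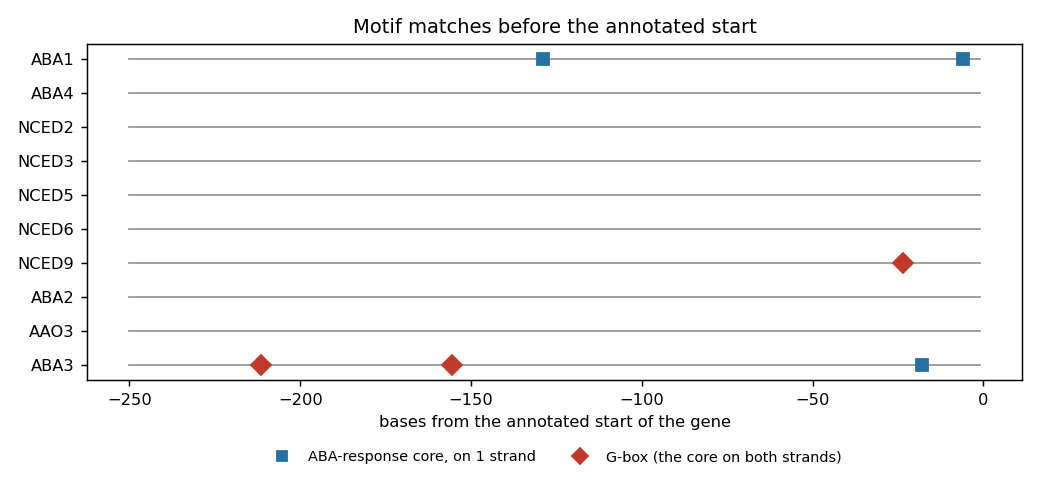
Positions of the ABA-response core (squares, on 1 strand) and the G-box (diamonds) in the 250 bases before the annotated start of each of the 10 listed genes; the x axis is the distance from the start in bases. ABA1, NCED9 and ABA3 each have a match close to the start, ABA3 has 3 marked positions in all, and the other 7 windows are empty.

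Per length, the 7 genes covered a wide range of levels, given in RPKM (reads per kilobase of gene and M reads of the library). Over the 28 libraries ABA1 had the highest mean at 51.2 RPKM and NCED9 the lowest at 1.08 RPKM. ABA4 followed ABA1 with 23.3 RPKM, and ABA1 was above ABA4 in 28 of 28 libraries. AAO3 (9.58 RPKM), ABA3 (8.11), NCED3 (6.07) and ABA2 (5.75) came next, and these neighbours were not cleanly ordered: AAO3 was above ABA3 in 17 of 28 libraries, ABA3 above NCED3 in 21, and NCED3 above ABA2 in 16. ABA2 was above NCED9 in all 28. The order changed with treatment at the start of the series, where NCED3 was the sixth of the 7 genes in mock at 1 h (mean 2.14 RPKM) and the third in ABA at 1 h (mean 7.95 RPKM).

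**Figure D2:**
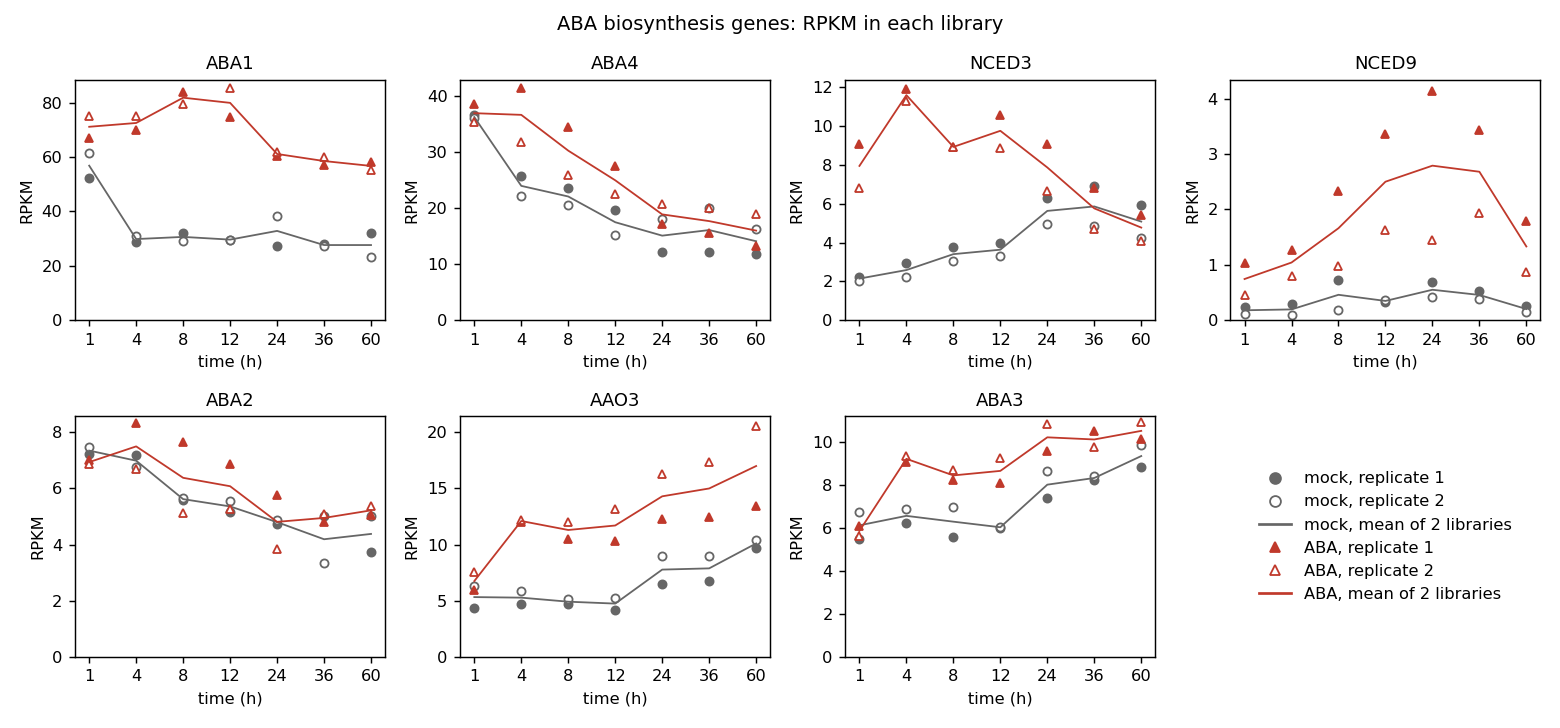
RPKM of the 7 measured genes in each library (y axis, linear) against time of treatment (x axis, hours, evenly spaced); grey circles are mock, red triangles are ABA, filled symbols are replicate 1, open symbols replicate 2, and lines join the means of 2 libraries. NCED3 converges by 36 h, ABA1 and AAO3 remain apart, and ABA2 overlaps at most times.

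ABA raised most of the pathway, and none of its measured genes was called lower at any time. Differences are on the log2(RPKM + 1) scale, ABA minus mock, ± the standard error of limma's model; the threshold for a call was an adjusted p of 0.05 (Benjamini-Hochberg over all 18310 genes). At 1 h 1 of 7 genes was called higher, beside 2.09% of all genes called in either direction and 1.7% called higher. At 4 h 4 of 7 were called (12.7% of all genes, 8.98% higher), at 8 h 3 of 7 (11.5% and 7.92%), and at 12 h 5 of 7 (12.5% and 8.37%). At 24 h and 36 h 3 of 7 were called (10.5% and 6.64%, then 13.8% and 8.24%), and at 60 h 1 of 7 (13.6% and 7.84%). The moderated F test for an effect at any time called 5 of 7 genes (23.6%), all but ABA2 and ABA4. Over the mean of the 7 times 6 of 7 were called higher, against 39.1% of all genes called and 21% called higher, and ABA2 was the exception. NCED9 was among those called at 12, 24 and 36 h, by F and in the mean. As the label of the filter reads, it entered the table only through its ABA libraries. These and later counts that include NCED9 are thus in part conditional on the filter. The median difference of the 7 genes was 0.77 at 4 h and 1.15 at 12 h, with medians over all genes of -0.019 and 0.009.

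Replicate numbers were taken to pair ABA with mock libraries from these same data, as the labels state no pairing. A block for each pair called more of the genes. With that block the members called higher were 1, 6, 6, 6, 6, 3 and 3 at 1, 4, 8, 12, 24, 36 and 60 h. The shares of all genes called in that fit were 4.92, 27.3, 25, 28.4, 24.4, 29.7 and 28.6%, of which 3.89, 16.8, 15.5, 16.6, 13.6, 16 and 14.9% were higher. Without any model, both ABA libraries lay above both mock libraries for 3, 6, 6, 6, 5, 4 and 5 of the 7 genes at those times, beside 16, 27.1, 25.8, 27.2, 22.2, 25.1 and 22.5% of all genes. Nothing in the labels ties the replicates to separate cultures, so a p-value here covers only the spread between the libraries, which may be technical. The authors' deposited table gave 1, 4, 4, 5, 3, 3 and 3 of the 7 genes an FDR under 0.05 at the 7 times, beside 2.68, 12.7, 11.4, 12.5, 10.7, 13.6 and 13.3% of all genes.

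The members called were higher under ABA with each scaling tried, although the balance of all genes moved. The fit with voom weights used log2 counts per M recovered reads, scaled to library totals alone. The deposited RPKM also carry a scale for each library. Relative to those totals it was 0.9973 and 0.9719 in ABA and 1.097 and 1.067 in mock at 4 h. Voom weights thus came with a change of scaling, and the parts of the 2 were not tested. In that fit the median difference of all genes moved to -0.158 at 4 h and -0.11 at 8 h. The calls over all genes then went from 1644 higher and 685 lower to 1305 and 1340 at 4 h, from 1450 and 654 to 1113 and 922 at 8 h, and from 1532 and 749 to 1308 and 1093 at 12 h. In the mean over the times they went from 3851 and 3314 to 3056 and 4979. Quantile normalization gave 1485 and 970 at 4 h, 1410 and 1102 at 12 h and 3190 and 4734 in the mean. With voom weights the members called at 4, 8 and 12 h were 4, 3 and 5, and in the mean 6, all higher, with member medians of 1.07, 1.08, 1.22 and 0.87. At 24 h voom weights called 2 members, ABA1 and AAO3, and the call of NCED9 was lost.

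**Figure D3:**
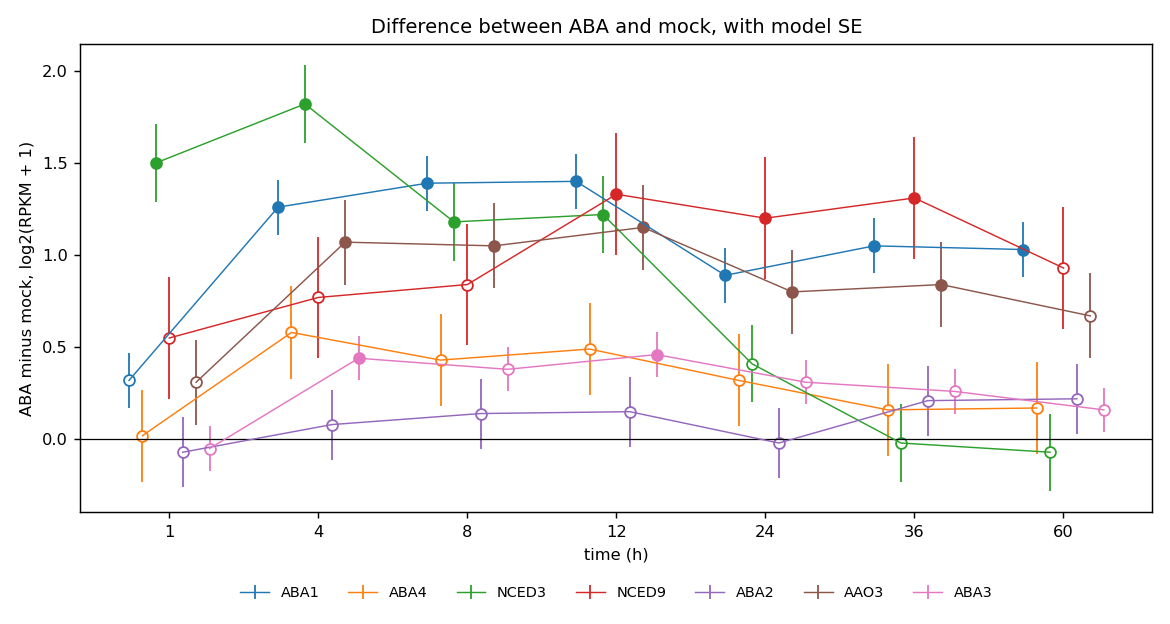
Difference of ABA minus mock on the log2(RPKM + 1) scale (y axis) for the 7 genes at each time (x axis, hours, evenly spaced, points shifted sideways for legibility); bars are ± 1 model standard error and filled points passed an adjusted p under 0.05. NCED3 starts at 1.5 and ends at -0.07, while ABA1 is between 0.89 and 1.4 from 4 h on.

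ABA1 (AT5G67030), the zeaxanthin epoxidase, opens the pathway and had the highest level of the 7 genes. Its gene spans chr5:26753469-26757402 on the minus strand with 16 exons. At 1 h the mock libraries held 52.4 and 61.3 RPKM and the ABA libraries 67.1 and 75.1, so the groups did not overlap but lay close. At 4 h the values were 28.8 and 30.8 RPKM in mock and 70 and 75.1 in ABA, and at 12 h 29.6 and 29.6 against 74.6 and 85.3. The mock libraries of 4 h lay below those of 1 h without overlap, while the ABA libraries of both times overlapped; these steps between times were not tested on their own. At 8 h mock held 32.2 and 29.1 RPKM and ABA 84 and 79.6, at 24 h 27.4 and 38.2 against 60.2 and 61.9, and at 36 h 28.1 and 27.2 against 56.9 and 60. At 60 h mock held 32.1 and 23.2 RPKM and ABA 58.2 and 55.2. From 4 h on, every ABA library stood above every mock library of ABA1, the mock libraries of 1 h aside, which reached 61.3 RPKM.

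The difference of ABA1 was 0.32 ± 0.15 at 1 h (adjusted p = 0.685), 1.26 ± 0.15 at 4 h (adjusted p = 6.86e-06), 1.4 ± 0.15 at 12 h (adjusted p = 2.14e-06) and 1.03 ± 0.15 at 60 h (adjusted p = 6.95e-05). The ratio of mean RPKM was 2.43 at 4 h, 2.7 at 12 h and 2.05 at 60 h, and ABA was the higher in 14 of 14 same-numbered pairs. Between 1 and 4 h the ABA effect grew by 0.94 ± 0.21 (adjusted p = 0.0206; 2.27% of all genes called, 1.95% higher). Leaving out either library of ABA or mock at 4 h, ABA replicate 1 or mock replicate 2 at 1 h ended that call, with values of 0.82 to 0.99 and adjusted p-values of 0.0561 to 0.14. So did voom weights (adjusted p = 0.0536). In mock seedlings ABA1 was lower at 60 h than at 1 h by a log2 difference of -1.03 ± 0.15 (adjusted p = 1.52e-05).

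ABA4 (AT1G67080, chr1:25045151-25047103, minus strand), needed to form neoxanthin, changed with time under both treatments, and its ABA and mock libraries lay close at the start and the end. At 1 h mock held 36.6 and 36.1 RPKM and ABA 38.6 and 35.4, and the groups overlapped. At 4 h mock held 25.8 and 22.2 RPKM and ABA 41.5 and 31.9, and at 60 h 11.9 and 16.3 against 13.2 and 18.9. The ABA libraries lay above mock without overlap at 4, 8 and 12 h only. The difference was 0.58 ± 0.25 at 4 h (adjusted p = 0.157) and 0.31 ± 0.09 over the mean of the times (adjusted p = 0.0127). With a block for each pair it was called at 4, 8, 12 and 24 h (adjusted p = 0.000952, 0.00802, 0.00293 and 0.033). A block by replicate number called it at none of these times (adjusted p = 0.117, 0.291, 0.185 and 0.451). The moderated F test for any ABA effect gave an adjusted p of 0.25. It was 0.000555 with the block for each pair and 0.184 with the block by number. The effect at 4 h exceeded that at 1 h by 0.56 ± 0.35 (adjusted p = 0.761). The adjusted p was 0.0342 with the block for each pair and 0.554 with the block by number. In mock, ABA4 at 60 h was lower than at 1 h by -1.32 ± 0.25 (adjusted p = 0.000185).

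NCED3 (AT3G14440), a gene of 1 exon at chr3:4831286-4834015 on the minus strand, was the only member called at 1 h. Mock libraries then held 2.24 and 2.03 RPKM and ABA libraries 9.08 and 6.83. At 4 h mock held 2.94 and 2.21 RPKM and ABA 11.9 and 11.3, the highest values of the gene. At these times the ABA libraries stood 3.72 and 4.5 times above mock by mean RPKM. At 8 h mock held 3.76 and 3.04 RPKM and ABA 8.94 and 8.91, and at 12 h 3.98 and 3.28 against 10.6 and 8.89. At 24 h mock held 6.27 and 4.98 RPKM and ABA 9.07 and 6.66, and the groups were still apart. At 36 h mock held 6.89 and 4.83 RPKM and ABA 6.81 and 4.71, and at 60 h 5.94 and 4.22 against 5.43 and 4.1. The groups overlapped at 36 and 60 h, and the 2 courses met from both sides. Mock rose by 0.94 ± 0.21 from 1 to 60 h (adjusted p = 0.000825), and ABA came down from its highest values. That fall under ABA was not tested on its own.

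The difference of NCED3 was 1.5 ± 0.21 at 1 h (adjusted p = 0.000222), 1.82 ± 0.21 at 4 h (adjusted p = 3.89e-06), 1.18 ± 0.21 at 8 h (adjusted p = 0.000616) and 1.22 ± 0.21 at 12 h (adjusted p = 0.000399). At 24 h it was 0.41 ± 0.21 (adjusted p = 0.278, or 0.0112 with a block for each pair). At 36 h it was -0.02 ± 0.21, with a 95% interval of -0.46 to 0.42, and at 60 h -0.07 ± 0.21, with an interval of -0.51 to 0.37. The ABA effect at 60 h was thus smaller than at 4 h by -1.89 ± 0.29 (adjusted p = 0.00102), a difference that was called lower in 1.73% of all genes and called in 2.46%. NCED3 was the only one of the 7 called in that comparison. The rise from 1 to 4 h, 0.32 ± 0.29, did not pass (adjusted p = 0.973). Replicate 1 held more NCED3 than replicate 2 in 14 of 14 groups, and within each replicate the ABA to mock ratio at 4 h was 4.04 and 5.1 and at 60 h 0.914 and 0.972.

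NCED9 (AT1G78390, chr1:29490705-29492875, minus strand, 1 exon) was the least abundant of the measured genes and kept a large ratio to the end. Its mock libraries rested on 4 to 28 reads each and its ABA libraries on 20 to 153. The label of the deposited table reads as a filter of 2 counts per M reads in 2 libraries. Read that way, no mock library reached the filter: the most, 28 reads, came from a library of 17.92 M. The gene then passed only through its ABA libraries, so its ratios and calls are conditional on a high level under ABA. At 1 h mock held 0.245 and 0.109 RPKM and ABA 1.03 and 0.458. At 12 h mock held 0.327 and 0.365 RPKM and ABA 3.37 and 1.63, and at 24 h 0.682 and 0.415 against 4.14 and 1.44. At every time both ABA libraries lay above both mock libraries, and the 4.14 RPKM at 24 h was the highest value of the gene. At 4 h mock held 0.293 and 0.0929 RPKM and ABA 1.27 and 0.802, and at 8 h 0.723 and 0.19 against 2.33 and 0.983. At 36 h mock held 0.523 and 0.386 RPKM and ABA 3.44 and 1.93, and at 60 h 0.249 and 0.151 against 1.79 and 0.869. The highest mean under ABA was 2.79 RPKM at 24 h, which rests on replicate 1; replicate 2 was highest at 36 h (1.93 RPKM). For NCED3 the highest mean under ABA was 11.6 RPKM at 4 h, and the order of these times was not tested.

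The ratio of mean NCED9 levels was 4.2 at 1 h, 7.22 at 12 h and 6.65 at 60 h. Differences on the log2(RPKM + 1) scale understate changes of so low a gene. At 12 h the difference was 1.33 ± 0.33 (adjusted p = 0.0105), at 24 h 1.2 ± 0.33 (adjusted p = 0.0256) and at 36 h 1.31 ± 0.33 (adjusted p = 0.0111). It was 0.77 ± 0.33 at 4 h, 0.84 ± 0.33 at 8 h and 0.93 ± 0.33 at 60 h, which did not pass (adjusted p = 0.169, 0.132 and 0.079) but did with a block for each pair (adjusted p = 0.0221, 0.0149 and 0.00741). At 12, 24 and 36 h the call was lost without ABA replicate 1 of that time (0.97, 0.66 and 1.01), and also without either mock library at 12 h (1.31 and 1.35) and 24 h (1.32 and 1.07) and without mock replicate 2 at 36 h (1.24). With voom weights the call at 24 h was lost as well (adjusted p = 0.0846). The authors' deposited table gave log2 fold changes of 2.39 at 4 h, 2.85 at 12 h and 2.72 at 60 h for NCED9, with FDR values of 0.00498, 0.000197 and 0.00137. Replicate 1 exceeded replicate 2 in 13 of 14 groups, and within the replicates the ratio at 12 h was 10.3 and 4.45.

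The markers of seed storage and oil bodies were in the table and moved in the same direction as NCED9, a gene known from seeds. The storage protein gene CRA1 ranged from 10.9 to 199 RPKM in mock and from 48.8 to 1280 in ABA, and the oleosin gene OLEO1 from 1.63 to 23.5 and from 20.1 to 184. Their mean differences were 1.73 (adjusted p = 0.00041) and 2.66 (adjusted p = 1.6e-07), while a second storage gene, AT2S3, had 0.67 (adjusted p = 0.0802). The summed level of the 2 storage genes was 16.6 to 215 RPKM in mock and 71.4 to 1330 in ABA. Their part in the NCED9 result was not tested.

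ABA2 (AT1G52340, chr1:19489794-19491650, minus strand), the xanthoxin dehydrogenase, showed no call at any time. Mock libraries ranged from 3.36 to 7.48 RPKM with a median of 5.36, and ABA libraries from 3.86 to 8.32 with a median of 5.57. At 1 h mock held 7.22 and 7.48 RPKM and ABA 7.01 and 6.87, the one time and gene with both ABA libraries below mock. ABA was higher in 7 of 14 pairs, and the mean difference was 0.1 ± 0.07 with a 95% interval of -0.05 to 0.25 (adjusted p = 0.286). With time in mock, ABA2 fell by 0.64 on the log2 scale between 1 and 60 h (SE 0.19, adjusted p = 0.00671), a call that was lost without mock replicate 1 at 60 h (-0.47). On the opposite strand the gene overlaps the measured gene AT1G52330 by 121 bases and the non-coding RNA AT1G07803 by 349. Whether counting used the strand is not given in the sources used here, so reads of these partners cannot be told apart with certainty.

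AAO3 (AT2G27150, chr2:11601727-11608450, plus strand), the abscisic aldehyde oxidase, rose with time in mock, and its ABA libraries stood above mock from 4 h on. At 1 h mock held 4.35 and 6.28 RPKM and ABA 5.99 and 7.52, which overlapped. At 4 h mock held 4.67 and 5.87 RPKM and ABA 12 and 12.2, and at 8 h 4.66 and 5.17 against 10.5 and 12. The groups were apart from 4 h on. At 12 h mock held 4.21 and 5.27 RPKM and ABA 10.3 and 13.2, and at 24 h 6.51 and 9.02 against 12.3 and 16.3. At 36 h mock held 6.79 and 8.97 RPKM and ABA 12.5 and 17.4, and at 60 h 9.73 and 10.4 against 13.4 and 20.6. The highest value, 20.6 RPKM, was ABA replicate 2 at 60 h.

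The difference of AAO3 was 1.07 ± 0.23 at 4 h (adjusted p = 0.00264), 1.15 ± 0.23 at 12 h (adjusted p = 0.00146), 0.8 ± 0.23 at 24 h (adjusted p = 0.0267) and 0.84 ± 0.23 at 36 h (adjusted p = 0.0157). At 60 h 0.67 ± 0.23 did not pass (adjusted p = 0.0588, or 0.000854 with a block for each pair), and the authors' deposited table gave an FDR of 0.0293 for the same time. The calls at 24 and 36 h were lost without mock replicate 1 (0.59 and 0.66) or ABA replicate 2 (0.61 and 0.62) of that time. Replicate 2 was above replicate 1 in 14 of 14 groups, and the ratio within replicates was 2.58 and 2.08 at 4 h and 1.37 and 1.98 at 60 h. The growth of the ABA effect from 1 to 4 h was 0.77 ± 0.32 (adjusted p = 0.385, or 0.0135 with the block). In mock, AAO3 rose by 0.83 ± 0.23 from 1 to 60 h (adjusted p = 0.00418), and without mock replicate 1 at 1 h that was 0.6 and not called. AAO3 overlaps AT2G27160 on the opposite strand by 985 bases.

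ABA3 (AT1G16540, chr1:5659370-5665488, plus strand), the cofactor sulfurase, moved less than AAO3. At 1 h mock held 5.48 and 6.73 RPKM and ABA 6.06 and 5.63, at 4 h 6.23 and 6.86 against 9.06 and 9.35, and at 12 h 6 and 6.04 against 8.06 and 9.22. The groups overlapped at 1 h and were apart at every later time, to 8.82 and 9.85 RPKM in mock and 10.1 and 10.9 in ABA at 60 h. The difference was 0.44 ± 0.12 at 4 h (adjusted p = 0.023) and 0.46 ± 0.12 at 12 h (adjusted p = 0.0173). The call at 4 h was lost without any 1 of the 4 libraries of that time (0.38 to 0.5), and that at 12 h without either mock library or ABA replicate 2 (0.45, 0.46 and 0.37). At 8 h the difference was 0.38 ± 0.12 (adjusted p = 0.0538, or 0.0155 with a block for each pair), and at 24 h 0.31 ± 0.12 (adjusted p = 0.131, or 0.039). Over the mean of the times it was 0.28 ± 0.05 (adjusted p = 8.57e-05), and ABA was higher in 13 of 14 pairs. In mock ABA3 rose by 0.54 ± 0.12 between 1 and 60 h (adjusted p = 0.000986).

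Without ABA, then, 6 of the 7 genes changed between 1 and 60 h, in a comparison that called 61.4% of all genes. The genes that rose were NCED3, AAO3 and ABA3 (30.3% of all genes were higher), and those that fell were ABA1, ABA4 and ABA2 (31.1% lower). NCED9 differed by 0.03 ± 0.33 (adjusted p = 0.946). The moderated F test over the mock time course called the same 6 genes, beside 55% of all genes, and the one over the ABA time course called 6 (60.1%), all but ABA2. Of these, NCED9 (adjusted p = 0.0427) and ABA1 (adjusted p = 0.0204) were near the threshold. Leaving out 1 library ended the call over the ABA course in 18 of 28 fits for NCED9, 2 for ABA1 and 1 for AAO3 (adjusted p up to 0.142, 0.052 and 0.059). That of NCED9 was also lost with a pseudocount of 0.1 and with voom weights (adjusted p = 0.0956 and 0.149). The call of ABA2 over the mock course was lost without either mock library of 1 h (adjusted p up to 0.059). With voom weights the mock comparison of all genes went from 5541 higher and 5701 lower to 4301 and 6831, its median moved from 0.011 to -0.191, and 3 members were still called higher and 3 lower.

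The response to ABA changed with time in 2 of the 7 genes, against 4.17% of all genes, by the moderated F test over the differences from 1 h. For NCED3 F was 13.1 (adjusted p = 0.00102). For ABA1 F was 6.18 (adjusted p = 0.0341), and that call was lost in 19 of 28 fits that left out 1 library, where F was as low as 4.01, and with voom weights (adjusted p = 0.0722). For AAO3 the adjusted p was 0.859, or 0.0294 with a block for each pair, a fit that called 14.2% of all genes.

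Pathways that feed these genes, and relatives of AAO3 and the NCEDs, were read from 4 lists, chosen by function. Like the members, these lists were chosen with earlier results of these data known. The carotenoid list holds genes of the lutein branch (LUT1, LUT2 and LUT5) as well as those that lead to ABA1. Among 8 measured genes of plastid isoprenoid synthesis, none was called at any of the 7 times in either direction. Their median difference was -0.03 at 4 h and 0 at 60 h, beside -0.019 and 0.002 for all genes. Among 12 carotenoid synthesis genes, 1 was called at each time from 4 h on, and at each time it was BCH1 (AT4G25700), the beta-carotene hydroxylase that makes the substrate of ABA1. In mock seedlings 6 of 8 isoprenoid and 10 of 12 carotenoid genes were called lower at 60 h than at 1 h and none higher, beside 31.1% of all genes called lower and 30.3% higher. Their median differences were -1.41 and -1.17, beside 0.011 for all genes.

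BCH1 followed ABA1 closely. At 1 h mock held 51.4 and 59.2 RPKM and ABA 54.8 and 53.7, at 4 h 28.6 and 33.4 against 65.7 and 65.3, and at 60 h 31.3 and 30.3 against 45 and 51.5. As for ABA1, the mock libraries of 4 h lay below those of 1 h without overlap, and the ABA libraries did not. The difference was -0.02 ± 0.13 at 1 h (adjusted p = 1), 1.06 ± 0.13 at 4 h (adjusted p = 7.92e-06) and 0.63 ± 0.13 at 60 h (adjusted p = 0.002). In the mean over the times, which called 21% of all genes higher and 39.1% in either direction, 5 of the 12 carotenoid genes were called higher, BCH1 (0.77), BCH2 (0.44), a second beta-carotene hydroxylase, the lycopene epsilon-cyclase LUT2 (0.32), the desaturase ZDS (0.23) and the isomerase CRTISO (0.16). LUT1, a hydroxylase of the lutein branch, was called lower (-0.24).

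**Figure D4:**
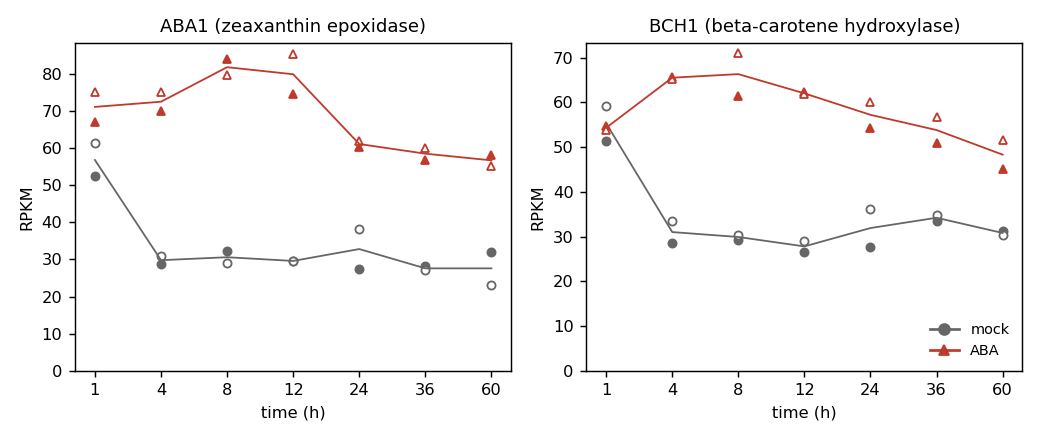
RPKM of ABA1 (left) and BCH1 (right) in each library against time (hours, evenly spaced); grey circles are mock, red triangles are ABA, filled symbols are replicate 1, open symbols replicate 2, and lines join the means of 2 libraries. In both genes the mock libraries lie lower at 4 h than at 1 h, for ABA1 with means of 29.8 and 56.8 RPKM, while the ABA libraries do not.

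None of 6 molybdenum cofactor synthesis genes was called at any time; over the mean of the times CNX2 (0.46) and CNX3 (0.17) were higher and CNX5 (-0.14) lower. Of 7 relatives of AAO3 and the NCEDs, 5 were measured, and AAO4 and CCD7 were absent from the table. CCD8, a carotenoid cleavage dioxygenase of strigolactone synthesis, held 2.55 and 3.31 RPKM in mock and 0.862 and 0.812 in ABA at 4 h. It was thus lower by -1.09 ± 0.21 (adjusted p = 0.00136), and at 8 h by -0.76 ± 0.21 (adjusted p = 0.0239). At 36 h it held 2.82 and 3.94 RPKM in mock and 4.71 and 6.46 in ABA, a difference of 0.59 ± 0.21 that did not pass (adjusted p = 0.0806). Its effect at 60 h exceeded that at 4 h by 1.49 ± 0.3 (adjusted p = 0.00955), a change opposite in sign to that of NCED3, of the same enzyme family. The aldehyde oxidase gene AAO1 was lower at 60 h by -0.56 ± 0.16 (adjusted p = 0.0201). At that time AAO3 had 0.67 ± 0.23, which did not pass (adjusted p = 0.0588). With a block for each pair, 2 to 5 carotenoid genes, 1 to 2 cofactor genes and 1 to 3 relatives were called at each time from 4 h on, and 0 to 1 isoprenoid genes at each of the 7 times. That fit called 24.4 to 29.7% of all genes from 4 h on. Over the mean of the times that fit called 3 isoprenoid genes, 1 of them higher. In the unblocked fit CCD1, a dioxygenase of broad substrate range, was higher over the mean of the times (0.31) and AAO1 lower (-0.27).

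**Figure D5:**
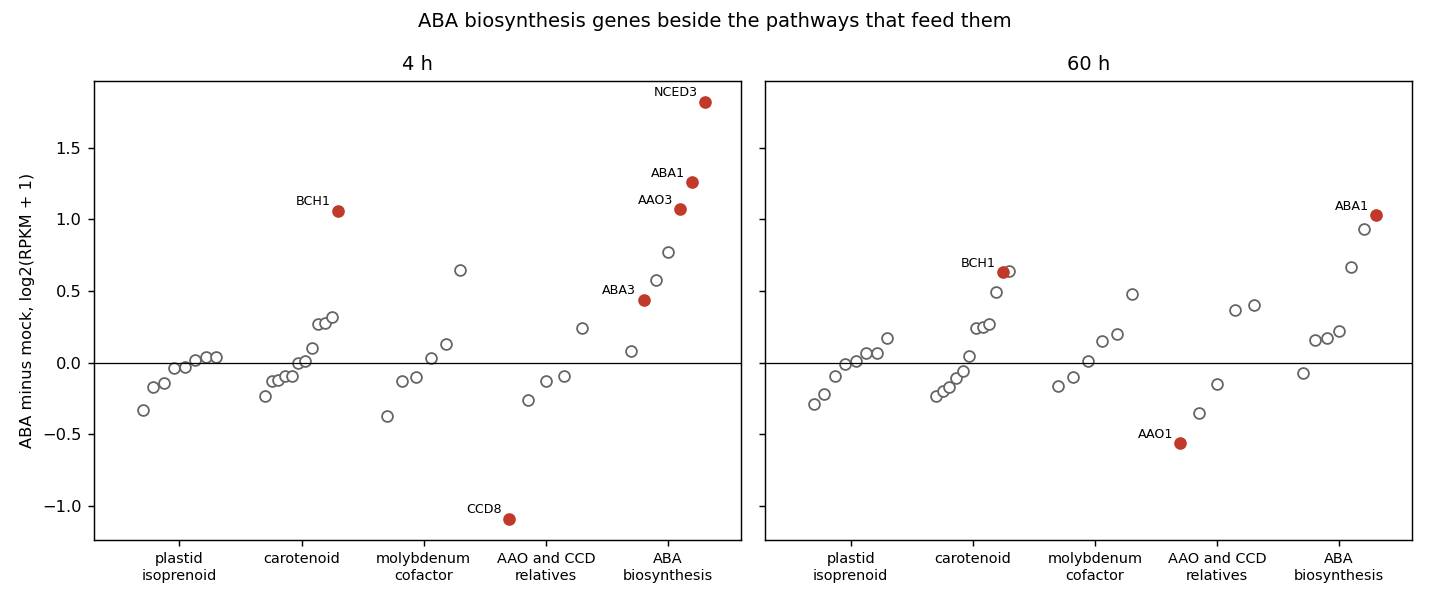
Difference of ABA minus mock on the log2(RPKM + 1) scale (y axis) at 4 h (left) and 60 h (right) for each measured gene of the 4 lists and of ABA biosynthesis (x axis, genes sorted within a list); filled, named points passed an adjusted p under 0.05. At 4 h BCH1 and 4 ABA biosynthesis genes are higher and CCD8 is lower; at 60 h BCH1 and ABA1 are higher and AAO1 lower.

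The genes most like each member were taken by Pearson's r of log2(RPKM + 1) over the 28 libraries, among 17656 genes with a mean of at least 1 RPKM that are not members. Libraries share treatment and age, so r describes the series and carries no p. For ABA1 the first was BCH1 (r = 0.958), followed by CGLD27 and AT1G29640 (both 0.958). For NCED3 they were NF-YB2 (0.908), a subunit of the NF-Y transcription factor, AT3G14067 (0.883), PAL4 (0.879), a phenylalanine ammonia-lyase, NF-YC3 (0.876), another NF-Y subunit, and AT5G47530 (0.873). For AAO3 they were CSY3 (0.969), a peroxisomal citrate synthase, SUS3 (0.964), a sucrose synthase, and AT5G61820 (0.961). For ABA4 they were SDH2-1 (0.949), a succinate dehydrogenase subunit, PGM (0.947) and ALDH3I1 (0.946), an aldehyde dehydrogenase. For NCED9 they were AT1G30190 (0.926), AT1G32710 (0.916) and AT1G08170 (0.908), for ABA2 AT1G28570 (0.867), AT2G17695 (0.866) and AT4G35360 (0.863), and for ABA3 AT2G37520 (0.957), PAHX (0.949) and AT1G48540 (0.948).

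Depth in the kept genes was 16.27 to 26.6 M reads per library, with a median of 20.55 M. All 12 tissue markers were in the table, and PORA, abundant in dark-grown cotyledons, lay between 53 and 749 RPKM and was lower under ABA in the mean over the times (-0.33, adjusted p = 0.00538). The markers of vascular tissue were higher under ABA in the mean over the times. The phloem companion cell gene SUC2 ranged from 51.4 to 125 RPKM in mock and from 89.4 to 184 in ABA (mean difference 0.53, adjusted p = 8.2e-06), and the xylem gene XCP1 from 16.7 to 44.6 and from 17.5 to 79.9 (0.61, adjusted p = 0.00179). The 3 guard cell markers summed to 15.3 to 33.4 RPKM in mock and 9.97 to 27.2 in ABA, and 1 of them, MYB60, was called lower (-0.42, adjusted p = 0.0107). The 3 root markers, WER, SCR and CASP1, had differences of -0.25, -0.11 and -0.21 that did not pass (adjusted p = 0.126, 0.395 and 0.326). Their part in the results was not tested.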

How the data were processed

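The authors deposited a table of RPKM values, reads per kilobase of gene and M reads, for 18310 genes and 28 libraries, per the file headers, with a log2 fold change and an FDR (an adjusted p-value) of ABA against mock at each time. HTSeq 0.5.4, edgeR 3.6.2 and build TAIR10 are named in the submitters' processing notes, without roles. The aligner is not given in the sources used here. Per the labels' protocols libraries came from a stranded poly(A) kit on an Illumina instrument. In each line the identifier and the first value were split at a space. RPKM values were whole multiples of a read in 100.0% of cases within 0.01 reads, which gave 16.27 to 26.6 M reads per library in the kept genes; read numbers cover counting error only.

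The model was fitted here to log2(RPKM + 1) by limma 3.58.1 (R 4.3.3), two-sided, with 14 group means and an intensity trend. It had 14 residual degrees of freedom, 17.7 once the prior is added, and the standard error of a difference at 1 time had a median of 0.19. P-values were adjusted by Benjamini-Hochberg over all genes. The procedure was tried on simulated counts without replicate structure or change in mock. That trial therefore does not cover data with such structure. Pairing was checked from the replicate 1 minus 2 deviations. Those of ABA and of mock correlated across genes at each of the 7 times (Pearson's r 0.429 to 0.736), so numbers were taken to pair libraries, although the labels state no pairing. The blocked fit kept 7 residual degrees of freedom, with a median standard error of 0.12.

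The members and lists were chosen with earlier results of these data known. The genes named are all 10 members, listed pathway genes called at 4 h, at 60 h or in the mean, and the 3 genes most like each member (5 for NCED3). Identifiers were looked up in the RefSeq annotation of TAIR10.1, where all 10 matched; its models may differ from those counted on. Of 32-base words in their exons, 18 of 2699 in NCED3 and 11 of 2140 in NCED9 occur elsewhere in the genome and 0 in the other 5 measured genes. Alternatives changed the pseudocount (0.1, 0.5), the filter (a mean of at least 1 RPKM), the scaling, the block and the libraries fitted. Each library was also left out in turn. The fit with voom weights on recovered reads changed the scaling and the log scale as well as the weights.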

Additional observations from a re-analysis of the deposited data

Results flagged for a closer look

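The ABA effect on NCED3 differed between 60 h and 4 h by -1.89 on the log2(RPKM + 1) scale, by limma's test of the difference itself (adjusted p = 0.00102). It differed across the 7 times as a whole, with a moderated F of 13.09 (adjusted p = 0.00102). The difference from 4 h was called in every fit that left out 1 library.

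For ABA1 the ABA effect was larger at 4 h than at 1 h by 0.94 (adjusted p = 0.0206), and the F over times was 6.18 (adjusted p = 0.0341). Leaving out 1 library ended the first call in 6 of 28 fits and the second in 19 of 28.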

How the results depend on the processing

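Of 105 results of single members, 53 were called, and 36 of these were called in every alternative run. The values that changed sign concerned no called result. They were ABA4 at 1 h (-0.03 with quantile normalization, -0.02 with voom weights) and ABA2 at 4 h (-0.04 with voom weights). Leaving out 1 library changed the sign within -0.04 to 0.09 (ABA4) and -0.18 to 0.08 (ABA3) at 1 h, -0.06 to 0.22, -0.12 to 0.39, -0.02 to 0.31, -0.25 to 0.22 and -0.02 to 0.45 (ABA2 at 4, 8, 12, 24 and 36 h), -0.18 to 0.51 and -0.08 to 0.41 (ABA4 at 36 and 60 h), and -0.25 to 0.2 and -0.28 to 0.13 (NCED3 at 36 and 60 h). The same held for 60 h minus 4 h (-0.13 to 0.45 for NCED9, -0.04 to 0.3 for ABA2), and for NCED9 at 4 h minus 1 h (-0.02 to 0.46) and in mock at 60 h minus 1 h (-0.05 to 0.11).

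With a replicate block by number, members called were 5 at 8 h, 5 at 24 h, 3 at 60 h and 2 for the effect at 4 h minus 1 h; with the block by pair they were 6, 6, 3 and 3. At 60 h pseudocounts of 0.1 and 0.5 and quantile normalization gave 2. The fit of only the 4 libraries of a time called 0 at 24 h and 0 at 60 h, and lost ABA3 at 4 and 12 h and AAO3 at 36 h. Calls of members that the block by pair changed stand beside their results; it changed no other. With voom weights the effect at 4 h minus 1 h had 0 and the effect that differs between times had 1.

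Leaving out each library in turn gave 1 to 1 members called at 1 h, 3 to 4 at 4 h, 3 to 4 at 8 h, 3 to 5 at 12 h, 1 to 3 at 24 h, 2 to 3 at 36 h and 1 to 2 at 60 h. It gave 6 for the mean over times, 1 for 60 h minus 4 h, 0 to 1 for 4 h minus 1 h, 5 to 6 for mock 60 h minus 1 h, 5 for any effect, 1 to 2 for the effect that differs between times, 5 to 6 for the mock course and 4 to 7 for the ABA course. In such fits the library left alone is assumed to vary like the other groups. Over all genes, the block by pair called 901, 4996, 4578, 5208, 4473, 5443 and 5233 genes at the 7 times (383, 2329, 2104, 2281, 1926, 2531 and 2485 without), 2106 for 60 h minus 4 h (451; 285 with voom weights, 1060 by number), 1302 for 4 h minus 1 h (416; 765 by number), 8600 for any effect (4315) and 2609 for an effect that differs (764; 488 with voom weights, 1455 by number). The block by number called 647 genes at 1 h, 3117 at 8 h, 3498 at 12 h, 2908 at 24 h and 3682 at 60 h, and the 4 libraries alone 842, 1241 and 921 at 24, 36 and 60 h. The cause of these changes was not tested. Depth limits NCED9 most, at 4 to 28 reads in mock.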

Other observations

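Replicates of a group differed in the same direction at nearly all times for some members. Replicate 1 was above replicate 2 in 14 of 14 groups for NCED3 and in 13 of 14 for NCED9, and replicate 2 was above replicate 1 in 14 of 14 for AAO3 and in 12 of 14 for ABA3. For ABA1, ABA4 and ABA2, replicate 1 was above in 5, 8 and 7 of 14 groups.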
